A study of Mus musculus with 6 samples.

Results

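The stem cell heptad is a set of transcription factors, FLI1, ERG, GATA2, RUNX1, TAL1, LYL1 and LMO2, that share many binding sites in blood stem and progenitor cells. Their 7 genes were taken here together with Gata1 and Gata3, relatives of Gata2, and with Zfpm1, which encodes FOG1, a zinc finger cofactor of GATA factors. All 10 genes, chosen by symbol, were among the 24015 listed in the count tables, and 9 had enough counts to be tested. The RNA was that of leukaemia stem cells, which were sorted from mice once acute myeloid leukaemia had fully developed. LSPCT libraries (n = 3) were from tamoxifen-treated mice and LSPC libraries (n = 3) from untreated mice. In both groups MLL-AF9, an oncogenic fusion that joins the MLL gene to AF9, drove the leukaemia, which had been started from lin-cKit+ bone marrow progenitors of NIKERT2 mice. These mice carry both Rosa-loxp-STOP-loxp-NIK, a silenced copy of the kinase gene NIK, and Rosa-CreERT2, a recombinase that removes the STOP once tamoxifen is given. The comparison asks what switching on NIK does in the leukaemia cells, but the effects of tamoxifen, of active Cre and of NIK cannot be told apart, since all 3 differ between the groups. The Rosa locus that drives both is active in nearly all cell types. The labels state neither the tamoxifen dose and time, nor the age of the mice. They also do not say whether each library came from its own mouse, so the p-values measure the spread between these libraries, which may be technical.

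In blood stem cells the heptad proteins bind together at enhancers, those of their own genes included. GATA2, a zinc finger protein, is needed to maintain stem cells, whereas GATA1 takes over in red cells, platelets, mast cells and eosinophils, and GATA3 directs T cells and innate lymphoid cells. TAL1 and LYL1 are related basic helix-loop-helix proteins that pair with E proteins, and LMO2 holds them to GATA factors through the scaffold LDB1. FLI1 and ERG are closely related ETS proteins, and RUNX1 binds DNA with its partner CBFB.

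The starts of Gata2 and of the related genes Tal1 and Lyl1 are shown because Gata2 and Tal1 had the clearest increases among the factors, while Lyl1, the relative of Tal1, did not share it. Each sequence is the 250 bases before an annotated RefSeq start of GRCm38.p6, which is a later build than that of the counts, written along the gene. Capitals mark matches on either strand. The GATA words were AGATAA and likewise AGATAG, with the variants that start with T, which are TGATAA and likewise TGATAG. The ETS word was GGAAG. The E-box words were CAGATG, then CAGCTG, and lastly CAGGTG. The RUNX words were TGTGGT and also TGCGGT, and the NF-kB consensus was searched as well.
Gata2 distal (chr6:88193641-88193890, + strand): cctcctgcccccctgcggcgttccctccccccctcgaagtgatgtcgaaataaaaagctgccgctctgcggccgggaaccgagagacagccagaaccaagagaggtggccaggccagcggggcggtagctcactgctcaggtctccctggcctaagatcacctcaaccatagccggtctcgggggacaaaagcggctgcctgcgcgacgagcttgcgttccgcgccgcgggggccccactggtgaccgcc
Gata2 proximal (chr6:88198414-88198663, + strand): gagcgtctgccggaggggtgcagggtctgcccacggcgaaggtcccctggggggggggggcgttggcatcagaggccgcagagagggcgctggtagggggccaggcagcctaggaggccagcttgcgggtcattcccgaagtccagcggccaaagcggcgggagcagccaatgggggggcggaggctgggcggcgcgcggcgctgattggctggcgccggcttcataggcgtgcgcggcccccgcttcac
Tal1 upstream (chr4:115056176-115056425, + strand): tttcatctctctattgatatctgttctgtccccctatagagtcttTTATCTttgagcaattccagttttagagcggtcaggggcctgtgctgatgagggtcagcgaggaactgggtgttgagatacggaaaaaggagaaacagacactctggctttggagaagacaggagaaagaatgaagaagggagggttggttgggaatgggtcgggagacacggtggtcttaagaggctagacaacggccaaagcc
Tal1 downstream (chr4:115057561-115057810, + strand): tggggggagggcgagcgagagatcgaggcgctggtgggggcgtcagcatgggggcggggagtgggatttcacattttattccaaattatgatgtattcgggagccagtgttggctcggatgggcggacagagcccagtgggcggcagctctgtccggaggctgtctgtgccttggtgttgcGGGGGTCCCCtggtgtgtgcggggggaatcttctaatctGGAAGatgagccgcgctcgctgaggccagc
Lyl1 (chr8:84701207-84701456, + strand): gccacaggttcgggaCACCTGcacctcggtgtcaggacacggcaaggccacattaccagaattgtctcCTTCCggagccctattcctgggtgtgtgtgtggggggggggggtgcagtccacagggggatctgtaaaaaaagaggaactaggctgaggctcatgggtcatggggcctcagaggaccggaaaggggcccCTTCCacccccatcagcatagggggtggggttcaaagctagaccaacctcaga

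Of these 5 windows, neither Gata2 window held a match to any of the motifs searched. The upstream Tal1 window held 1 GATA match, and the downstream one 1 ETS and 1 NF-kB match. The Lyl1 window held 2 ETS matches and 1 E-box match. Of all 32807 RefSeq windows of this length, 26.6% held a GATA match, 64.1% an ETS match, 38.1% an E-box match, 18.6% a RUNX match and 3.90% an NF-kB match. Over the 13 windows of the 8 factor genes with an entry, 2 held a GATA match, 7 an ETS match, 3 an E-box match, 1 an NF-kB match and none a RUNX match. A match describes letters only, and the counts per gene do not tell which start a transcript used.

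Total counts were 19999071 to 22454753 in the LSPCT libraries and 20410001 to 26773176 in the LSPC libraries. A gene without any count could still have 3, which equals 0.133 to 0.150 CPM (read counts scaled to library size with TMM factors) in LSPCT libraries and 0.111 to 0.149 CPM in LSPC libraries, by counting error only. Map3k14, the NIK gene, had 129.9, 190.6 and 159.5 CPM in the LSPCT libraries, against 26.5, 24.2 and 28.8 CPM in the LSPC libraries, so that the libraries matched their labels. Of 12729 genes tested, 8.96% rose and 8.24% fell (17.2% in all; edgeR quasi-likelihood test, adjusted p under 0.05). All 14 marker genes of myeloid leukaemia progenitors were expressed, among them Kit at 126.3 to 193.7 CPM in LSPCT libraries and 117 to 137 CPM in LSPC libraries, and 1 of them (Fcgr2b) rose while 5 fell. They summed to 6019, 4968 and 4202 CPM in LSPCT and to 12632, 11625 and 10648 CPM in LSPC. Mpo, the myeloperoxidase gene, had 372, 112 and 75.7 CPM in LSPCT, against 4080.2, 4028 and 2940.4 CPM in LSPC (log2 -4.30, SE 0.58, edgeR adjusted p = 0.00213, and -5.29 without LSPCT replicate 1). The protease genes Elane (log2 -1.58, edgeR adjusted p = 0.000978) and Prtn3 (-1.25, 0.00373), the receptor gene Flt3 (-1.2, 0.00153) and Fcgr3 (-0.49, 0.00518) were the others that fell. Mpo, Elane and Prtn3 carried most of the difference in the sums, and the median log2 fold change of the 14 genes was -0.07. LSPCT replicate 1 stood apart, with Spearman correlations across genes of 0.977 to LSPCT replicates 2 and 3, which correlated at 0.994 with each other. Some results are given with and without this library, and other fold changes printed here also shifted when it was left out.

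Gata2 roughly doubled with tamoxifen and was the only one of the 9 tested factor genes to pass the test, against the 8.96% of all genes that rose. It stood at 73.4, 80.2 and 74.7 CPM in the LSPCT libraries and at 35.5, 34.2 and 35.4 CPM in the LSPC libraries. The groups were far apart, and neither varied much within itself, with 76.1 ± 3.58 CPM in LSPCT and 35.1 ± 0.708 CPM in LSPC (SD, n = 3). The log2 fold change was 1.12 with a standard error (SE) of 0.08 (edgeR adjusted p = 0.000123), a 2.17-fold rise with a 95% interval of 1.91 to 2.47. LSPCT replicate 1 did not depart from its group for this gene, and without it the log2 fold change was 1.15 (edgeR adjusted p = 4.18e-05). In bulk libraries a change in RNA per cell and a change in the share of cells that express the gene cannot be told apart.

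**Figure D1:**
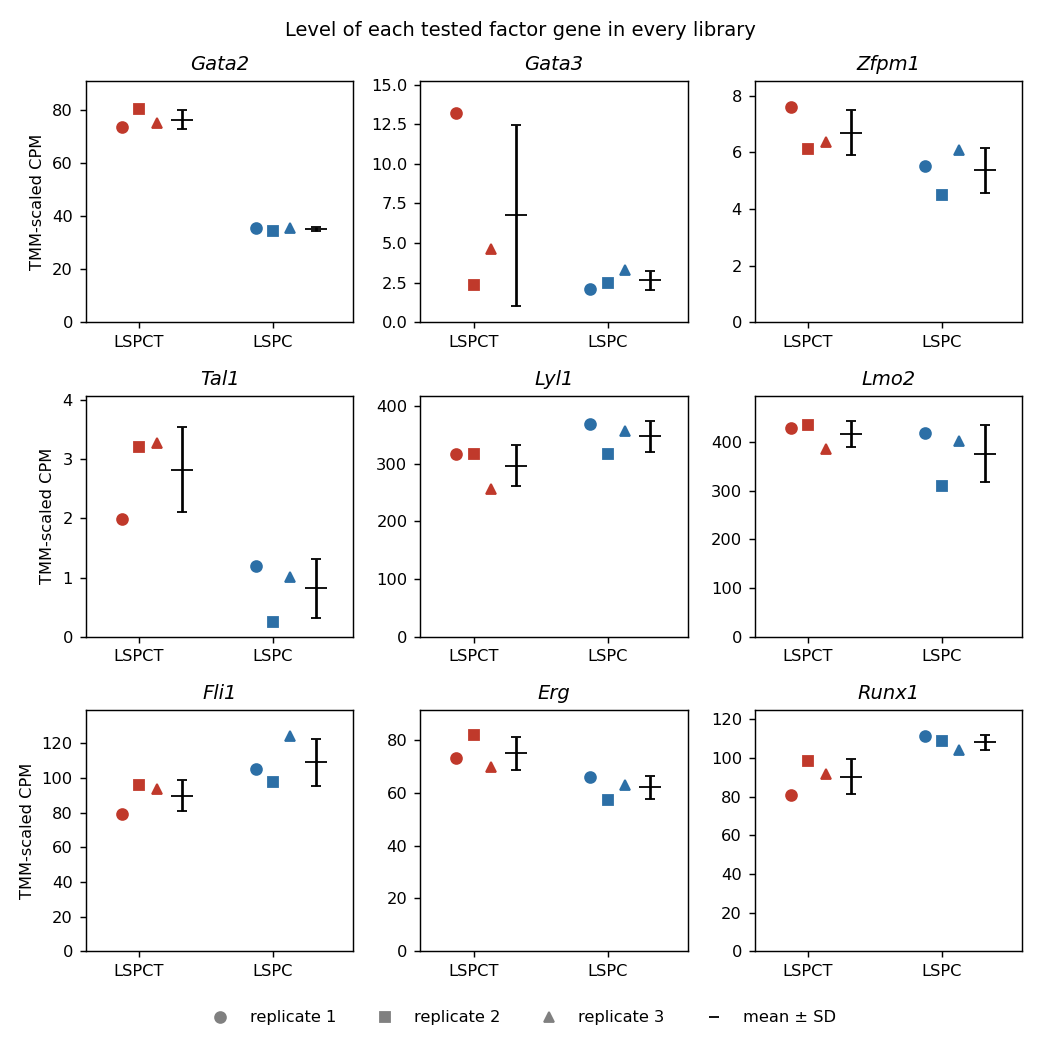
Level of the 9 tested factor genes in each library, in TMM-scaled CPM from 0 (vertical axes differ), with LSPCT in red and LSPC in blue, replicates as circle, square and triangle, and bars for the mean ± SD (n = 3). The Gata2 points of LSPCT lie at 73.4 to 80.2 CPM, all above the LSPC points at 34.2 to 35.5 CPM.

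Gata1 was all but silent in these cells. Its libraries held 0, 1 and 0 counts in LSPCT and 3, 0 and 0 counts in LSPC, at or under the limit of 3 counts, so no fold is given. The genes that GATA1 is known to activate in red cells and platelets were likewise scarce. Of 19 red cell genes in the tables, 6 were tested, and 8 had no more than 3 counts in any library, among them the globin genes Hba-a1, Hba-a2, Hbb-b1 and Hbb-b2, which were listed at 0 throughout. Of 18 megakaryocyte and platelet genes 7 were tested, and Gp6 and Treml1 were listed at 0 in every library.

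Gata3 was uneven among the tamoxifen libraries. It stood at 13.2, 2.37 and 4.65 CPM in LSPCT and at 2.09, 2.50 and 3.30 CPM in LSPC. Only LSPCT replicates 1 and 3 lay above all LSPC libraries, and replicate 2 lay within their range. The log2 fold change of 1.35 (SE 0.58, 95% interval 0.03 to 2.68) gave an edgeR adjusted p of 0.149 and did not pass. Leaving out LSPCT replicate 1 it was 0.42 (edgeR adjusted p = 0.451). In RefSeq 4930412O13Rik and 9230102O04Rik overlap Gata3, and they had at most 1 and 5 counts in any library.

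Genes of T cells and innate lymphoid cells, where GATA3 is best known, followed a like pattern in LSPCT replicate 1. Of 13 tested genes 6 rose and none fell, against 8.96% and 8.24% of all genes. The median log2 fold change was 1.24, against -0.0025 over all genes tested. The list summed to 328, 145 and 191 CPM in LSPCT and to 98.8, 96.5 and 94.2 CPM in LSPC, highest where Gata3 was highest. Tcf7, a T cell factor gene, had 77.2, 29.0 and 41.2 CPM in LSPCT, against 19.0, 18.9 and 17.2 CPM in LSPC (log2 1.42, SE 0.32, edgeR adjusted p = 0.0184). Its log2 fold change was 0.94 without LSPCT replicate 1 (edgeR adjusted p = 0.00359). The kinase gene Lck (log2 1.44, edgeR adjusted p = 0.0175) and the interleukin receptor genes Il7r (1.5, 0.0162) and Il2ra (1.32, 0.0197) also rose. Without LSPCT replicate 1 their log2 fold changes were 0.99, 1.21 and 0.88. With fewer LSPC libraries these calls weakened: leaving out LSPC replicate 1, 2 or 3, only 1, 0 or 2 of the list passed, and the 4 genes named missed the threshold without LSPC replicate 1 or 2 (edgeR adjusted p 0.0590 to 0.0763), as did Tcf7 (0.0541) and Il2ra (0.0534) without LSPC replicate 3 and Il7r (0.0522) without LSPCT replicate 3. The tested genes Cd3d, Cd3e, Cd3g, Cd4 and Zap70 of the list did not pass (edgeR adjusted p 0.0569 to 0.375). The list also held genes close to absent, such as Cd8b1, with at most 8 counts in any library.

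Summed macrophage, eosinophil, endothelial and B cell markers were also highest in LSPCT replicate 1, and their part in the Gata3 values was not tested. Other lists were not: the megakaryocyte and platelet sum was lowest there (335 CPM, against 350 to 475 CPM in the other libraries). The mast cell and basophil sum in that library (59.2 CPM) lay below every LSPC library, and the red cell sum (275 CPM) below LSPC replicates 1 and 2. The 12 macrophage genes summed to 1501, 641 and 690 CPM in LSPCT and to 175, 154 and 180 CPM in LSPC. Vcam1 made up most of the LSPCT sums. Emr1 came next, with 205.5, 141.9 and 147.5 CPM in LSPCT, against 84.7, 69.6 and 92.3 CPM in LSPC. Of 11 tested, 10 rose, against 8.96% of all genes. Vcam1, the adhesion molecule gene, had 930, 456 and 457 CPM in LSPCT, against 76.2, 82.7 and 75.5 CPM in LSPC (log2 2.98, edgeR adjusted p = 0.00037, and 2.55 without LSPCT replicate 1). With 1 library fewer the count of macrophage genes that rose dropped to 4 without LSPC replicate 1 or 2, and with limma voom to 3. Eosinophil genes summed to 321, 122 and 132 CPM in LSPCT and to 139, 107 and 118 CPM in LSPC. Against 8.96% of all genes, 2 of 5 tested rose. They were Prg3, a granule protein gene (log2 3.58, edgeR adjusted p = 0.00518, and 2.68 without LSPCT replicate 1), and the chemokine receptor gene Ccr3. Ccr3 had 292, 46 and 65 counts in LSPCT, against 4, 2 and 0 counts in LSPC, which is near the limit of 3 counts. The size of its fold is thus poorly determined (log2 6.14, 95% interval 3.62 to 8.66, edgeR adjusted p = 0.00774, and 4.77 without LSPCT replicate 1). Epx, the eosinophil peroxidase gene, had no more than 12 counts in any library. Endothelial genes, which share Erg, Fli1 and Tal1 with blood cells, summed to 37.3, 16.7 and 18.1 CPM in LSPCT and to 23.6, 28.8 and 35.4 CPM in LSPC. The gene Flt1 carried much of the LSPC sums. The defining endothelial genes Cdh5, Kdr, Emcn and Cldn5 had at most 21 counts in any library, and Cdh5 was higher in each LSPCT library (21, 8 and 3 counts) than in the LSPC libraries (0, 0 and 1 counts), as was Kdr (7, 10 and 6 counts in LSPCT, against 3, 2 and 0 counts in LSPC). Of 7 tested endothelial genes 5 had log2 fold changes above 0 and the median was 0.72, but 0 rose by edgeR, DESeq2 or limma voom. Of these, 1, Plvap (log2 1.31, edgeR adjusted p = 0.0809), was past the unadjusted threshold of 0.05, and with no filter on low counts 1 endothelial gene rose. The only one that passed was Flt1, which fell (log2 -2.77, edgeR adjusted p = 0.00848, and -3.67 without LSPCT replicate 1). B cell genes summed to 53.6, 30.6 and 37.5 CPM in LSPCT and to 43.2, 48.7 and 46.2 CPM in LSPC, 0 of 5 tested passed with edgeR, DESeq2 or limma voom, and 1, Blk, was past an unadjusted threshold of 0.05. The B cell factor gene Pax5 was listed at 0 in every library.

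**Figure D2:**
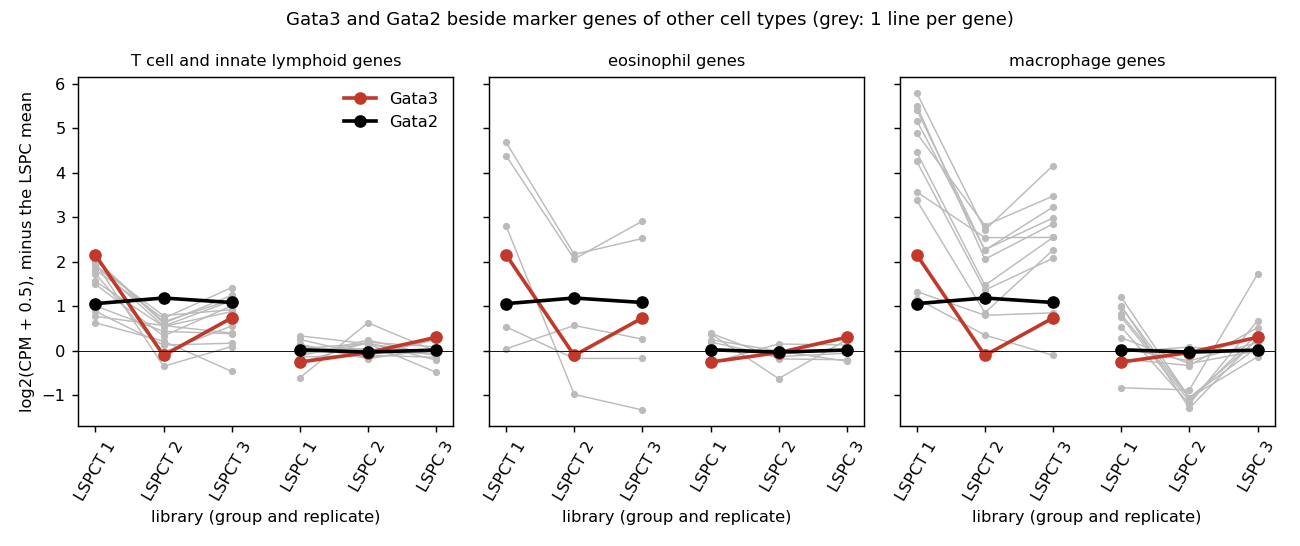
Level of Gata3 (red), Gata2 (black) and marker genes of 3 other cell types (grey, 1 line per gene) in each library, as log2(CPM + 0.5) minus the mean of the LSPC libraries; lines only join the points of a gene. Gata3 and most marker genes are highest in LSPCT replicate 1, while Gata2 lies near 1 in all 3 LSPCT libraries.

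Zfpm1 was expressed at a low level and differed little. It had 7.60, 6.13 and 6.37 CPM in LSPCT and 5.52, 4.49 and 6.09 CPM in LSPC, with each LSPCT library above each LSPC library by a narrow margin. The log2 difference of 0.32 did not pass (SE 0.22, 95% interval -0.18 to 0.82, edgeR adjusted p = 0.364).

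Tal1 was higher in every tamoxifen library, from a level close to the detection limit. It had 40, 69 and 74 counts in LSPCT and 24, 6 and 27 counts in LSPC, or 2.0, 3.20 and 3.27 CPM in LSPCT, against 1.19, 0.254 and 1.0 CPM in LSPC. The groups did not overlap, and LSPC replicate 2 was the lowest of all. The log2 fold change of 1.79 (SE 0.53, 95% interval 0.56 to 3.02) narrowly missed the threshold (edgeR adjusted p = 0.0546). It passed with DESeq2 (adjusted p = 0.0131), with limma voom (adjusted p = 0.0378), with no filter on low counts (edgeR adjusted p = 0.0452) and without LSPCT replicate 1 (log2 1.99, edgeR adjusted p = 0.0261). Over the other alternatives its adjusted p ran up to 0.198, and without LSPC replicate 2 the log2 fold change was 1.36 (edgeR adjusted p = 0.0958).

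Lyl1 and Lmo2, which encode a relative of TAL1 and the bridging protein of the complex, were the most abundant factor transcripts and did not pass. Lyl1 had 317, 316 and 256 CPM in LSPCT and 368, 316 and 356 CPM in LSPC, and the groups overlapped narrowly near 316 CPM. Its log2 fold change was -0.23 (SE 0.11, edgeR adjusted p = 0.198), with a 95% interval from -0.48 to 0.02. In RefSeq the gene Nfix overlaps Lyl1 and moved in the same direction without passing (log2 -0.27, edgeR adjusted p = 0.144); the strand setting of the counts is not given, so reads of the 2 genes may be mixed. Lmo2 had 429, 436 and 387 CPM in LSPCT and 419, 309 and 402 CPM in LSPC, with groups that overlapped. Its log2 fold change was 0.15 (SE 0.12, 95% interval -0.13 to 0.43, edgeR adjusted p = 0.457), so a rise beyond 1.35-fold lies outside the interval.

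The ETS genes Fli1 and Erg differed in opposite directions by small amounts, and neither passed. Fli1 had 79.5, 95.9 and 94.0 CPM in LSPCT and 105.3, 97.5 and 124.2 CPM in LSPC, lower in all LSPCT libraries though close at the edge (log2 -0.28, SE 0.12, edgeR adjusted p = 0.150). Erg had 73.3, 81.7 and 69.6 CPM in LSPCT and 65.9, 57.3 and 63.0 CPM in LSPC, higher in all LSPCT libraries (log2 0.27, SE 0.10, edgeR adjusted p = 0.10). Within a library, the log2 ratio of Fli1 over Erg was 0.12, 0.23 and 0.43 in LSPCT and 0.68, 0.77 and 0.98 in LSPC, a ratio that no scaling of libraries can move. The groups did not overlap, and the difference in mean log2 ratio was -0.55, or 0.26 ± 0.16 in LSPCT against 0.81 ± 0.15 in LSPC (SD, n = 3). The exact two-sided permutation test gave p = 0.10, the smallest that 3 against 3 libraries allow, and 0.20 adjusted over the 2 ratios with enough counts. The other of these, Gata2 over Gata3, differed by 0.09 on the log2 scale (exact permutation p = 0.90) and was spread widely by Gata3 in LSPCT, at 2.47, 5.08 and 4.01, against 4.09, 3.78 and 3.42 in LSPC.

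Runx1, whose product also drives definitive blood stem cell formation, was slightly lower. It had 81.0, 98.7 and 91.5 CPM in LSPCT and 111.4, 108.8 and 104.0 CPM in LSPC, with no overlap between the groups. The log2 fold change of -0.26 did not pass (SE 0.10, 95% interval -0.48 to -0.04, edgeR adjusted p = 0.107). Its partner gene Cbfb differed by -0.02 (SE 0.12, edgeR adjusted p = 0.933).

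**Figure D3:**
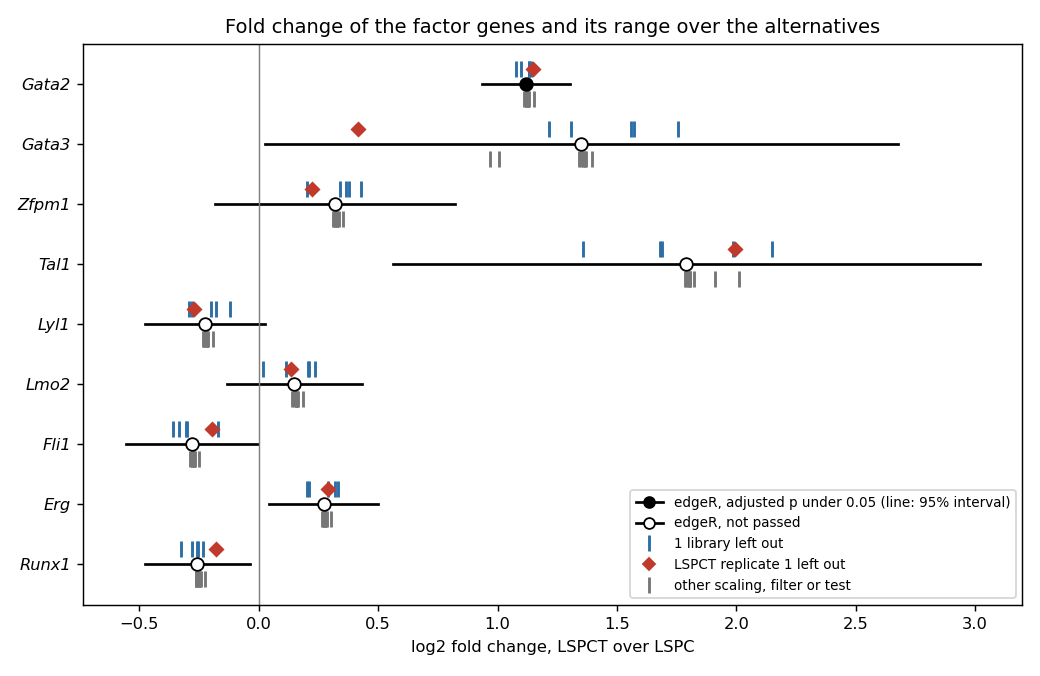
Log2 fold change of each tested factor gene, LSPCT over LSPC, with its 95% interval (circle and line; filled if the edgeR adjusted p was under 0.05) and its value with 1 library left out (ticks above, red diamond for LSPCT replicate 1) or with another scaling, filter or test (grey ticks below). Gata2 lies between 1.08 and 1.15, whereas Gata3 drops to 0.42 without LSPCT replicate 1.

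Of the 9 tested factor genes, 6 had groups that did not overlap, with LSPCT higher for Gata2, Tal1, Erg and Zfpm1 and lower for Fli1 and Runx1. Of all genes tested, 37.7% had such groups, 18.1% with LSPCT higher and 19.6% with LSPCT lower. At an unadjusted p under 0.05, 6 of the 9 were past the threshold (Gata2, Gata3, Tal1, Fli1, Erg and Runx1), against 31.9% of all genes, and no test of these shares was made. Their median log2 fold change was 0.27, against -0.0025 over all genes tested. Of the lower ones 0 passed with edgeR, DESeq2 or limma voom, and 2 of them, Fli1 and Runx1, were past the unadjusted threshold.

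Per length of exon, the factor genes fell into 3 tiers. Lmo2 and Lyl1 stood highest, at 204.4 to 230.1 and 142 to 176 CPM per kb in LSPCT and at 163 to 221 and 176 to 204 CPM per kb in LSPC, and these 2 neighbours did not overlap in LSPCT but did in LSPC. In LSPCT, Fli1 (27.1 ± 2.70), Erg (21.6 ± 1.79) and Gata2 (20.7 ± 0.972) followed with Runx1 below them (12.1 ± 1.19 CPM per kb, SD, n = 3), and Erg and Gata2 overlapped in level. In LSPC, Gata2 stood below Runx1, at 9.52 ± 0.192 against 14.5 ± 0.508 CPM per kb, with no overlap. Per length, the order of these 2 genes was thus the opposite of that in LSPCT. This swap rests on the lengths used, 3683 bases for Gata2 and 7452 for Runx1. In CPM, Gata2 lay below Runx1 in both groups, at 73.4 to 80.2 against 81.0 to 98.7 in LSPCT. Gata3, Zfpm1 and Tal1 lay at or below 4.12 CPM per kb in every library. The lengths are those of GENCODE M21 exons of RefSeq-matched transcripts, not of the annotation used for counting.

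**Figure D4:**
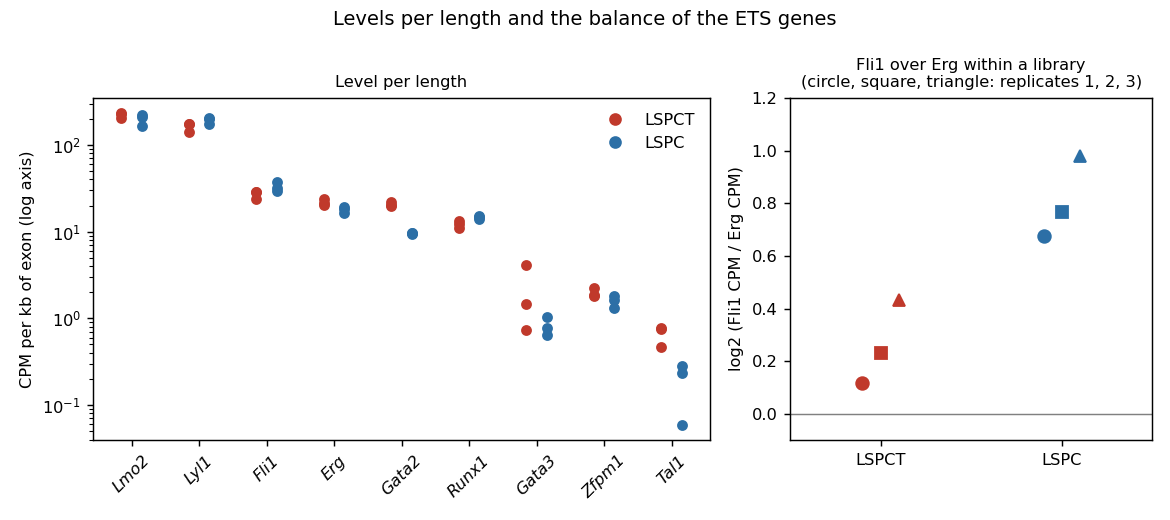
Left, CPM per kb of exon (log axis) of the 9 tested factor genes in each LSPCT (red) and LSPC (blue) library; right, log2 ratio of Fli1 over Erg CPM within each library. Per kb, Gata2 lies above Runx1 in the LSPCT libraries and below it in the LSPC libraries, but in CPM it is below Runx1 in both. The Fli1 to Erg ratio is 0.12 to 0.43 in LSPCT and 0.68 to 0.98 in LSPC.

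Among the proteins that build complexes with the factors, the E protein gene Tcf3 rose, and the E protein gene Tcf12 and a corepressor gene, Rcor1, fell. Of 20 tested partner and cofactor genes 1 rose and 4 fell, 25% against 17.2% of all genes, with a median log2 fold change of -0.08. Tcf3, which encodes the E2A proteins that pair with TAL1 and LYL1, had 245, 315 and 278 CPM in LSPCT, against 169, 159 and 161 CPM in LSPC (log2 0.78, SE 0.10, edgeR adjusted p = 0.00201). Tcf12, which encodes the related E protein HEB, had 58.0, 48.9 and 57.0 CPM in LSPCT, against 76.9, 82.7 and 68.5 CPM in LSPC (log2 -0.48, SE 0.11, edgeR adjusted p = 0.0203). The other E protein gene, Tcf4, had 49.3, 21.3 and 29.6 CPM in LSPCT and 31.8, 38.6 and 36.6 CPM in LSPC, with groups that overlapped, and did not pass (log2 -0.10, edgeR adjusted p = 0.841). Rcor1, which encodes CoREST, the partner of the demethylase LSD1 in GFI1B complexes, had 40.4, 40.2 and 44.1 CPM in LSPCT, against 77.2, 81.8 and 74.0 CPM in LSPC (log2 -0.90, SE 0.09, edgeR adjusted p = 0.000408). Mta2, of the NuRD complex that FOG1 recruits, had a log2 fold change of -0.34 (edgeR adjusted p = 0.0196), and Ssbp4, of the family that stabilises LDB1, one of -0.57 (edgeR adjusted p = 0.0363). The calls of Tcf3 and Rcor1 held with any single library left out. Those of the other 3 did not: without LSPC replicate 1 their edgeR adjusted p was 0.112 for Mta2, 0.0852 for Tcf12 and 0.145 for Ssbp4. Mta2 also missed without LSPC replicates 2 or 3 or LSPCT replicates 2 or 3 (0.0548 to 0.0657), Tcf12 without LSPC replicate 2 or LSPCT replicate 2 (0.0771 and 0.0587), and Ssbp4 without LSPC replicate 3 or LSPCT replicate 3 (0.0989 and 0.0914) and with the replicate number as a block (0.0578). Ldb1 itself did not pass (log2 -0.30, edgeR adjusted p = 0.126), nor did Kdm1a, the LSD1 gene (log2 -0.11, edgeR adjusted p = 0.439).

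Of 6 tested relatives of the factors 1 rose and 3 fell, against 8.96% and 8.24% of all genes, while the other 10 of the 16 had too few counts, with Gata4, Lmo3 and Fev listed at 0 in every library. Lmo4, a relative of Lmo2 that also binds LDB1, had 31.7, 40.3 and 40.3 CPM in LSPCT, against 68.1, 57.2 and 66.3 CPM in LSPC (log2 -0.77, SE 0.12, edgeR adjusted p = 0.00438), and this call held with any single library left out. Lmo1 also fell (log2 -1.06, edgeR adjusted p = 0.0409) but had no more than 4.28 CPM in any library, and it missed the threshold when any library but LSPCT replicate 1 was left out (0.0630 to 0.173) and with the replicate number as a block (0.0914). Runx2, a relative of Runx1 known for bone formation, had 77.6, 49.2 and 42.8 CPM in LSPCT, against 110.1, 109 and 112 CPM in LSPC (log2 -0.97, SE 0.20, edgeR adjusted p = 0.0144), and missed without LSPC replicate 1 (0.0563) or LSPCT replicate 2 (0.0530). Ets1, an ETS gene of lymphoid cells, rose to 38.7, 40.6 and 40.7 CPM in LSPCT, against 19.8, 15.4 and 28.4 CPM in LSPC (log2 0.91, SE 0.20, edgeR adjusted p = 0.0177), and missed without LSPC replicate 1 (0.0776), LSPCT replicate 2 (0.0539) or LSPCT replicate 3 (0.0560). Runx3 (log2 0.19) and Ets2 (-0.10) did not pass (edgeR adjusted p = 0.218 and 0.635).

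Among 16 tested genes of blood stem and progenitor cells, some of them known targets of these factors, 2 rose and 4 fell. The shares over all genes tested were 8.96% and 8.24%. Hdc, the histidine decarboxylase gene that GATA2 activates in mast cells, fell to 6.70, 5.2 and 2.74 CPM in LSPCT, against 43.7, 37.9 and 49.0 CPM in LSPC (log2 -3.16, SE 0.29, edgeR adjusted p = 0.00033), the same libraries in which Gata2 rose. The anti-apoptotic gene Bcl2 fell too (log2 -1.72, SE 0.15, edgeR adjusted p = 0.000308). Csf1r, a RUNX1 target that encodes the macrophage growth factor receptor, had 257, 318 and 299 CPM in LSPCT, against 113, 130 and 203 CPM in LSPC (log2 0.97, edgeR adjusted p = 0.0162), and missed without LSPC replicates 1 or 2 or LSPCT replicates 2 or 3 (0.0538 to 0.0644). Zbtb16, which encodes the zinc finger protein PLZF, fell (log2 -1.14, edgeR adjusted p = 0.0154) and missed without LSPC replicate 1 (0.0503) or 2 (0.0590). The remaining ones, Mycn (log2 1.6, edgeR adjusted p = 0.0197) and Cebpa (-0.43, 0.0337), were also lost without LSPC replicate 1 (0.0880 and 0.138) or 2 (0.0590 and 0.109), and Cebpa without LSPCT replicate 3 (0.108). Csf1r is also a macrophage gene, and the macrophage sums given above were higher in the same libraries, where Vcam1 made up most of them. The part of macrophage genes in the change of Csf1r was not tested. Without LSPC replicate 1 or 2, none of the 16 rose and 2 fell, and without LSPCT replicate 1, 4 rose and 4 fell. Spi1 (log2 0.25, edgeR adjusted p = 0.375), Gfi1 (-0.22, 0.469), Myb (-0.12, 0.419) and Kit (0.25, 0.330) did not pass.

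**Figure D5:**
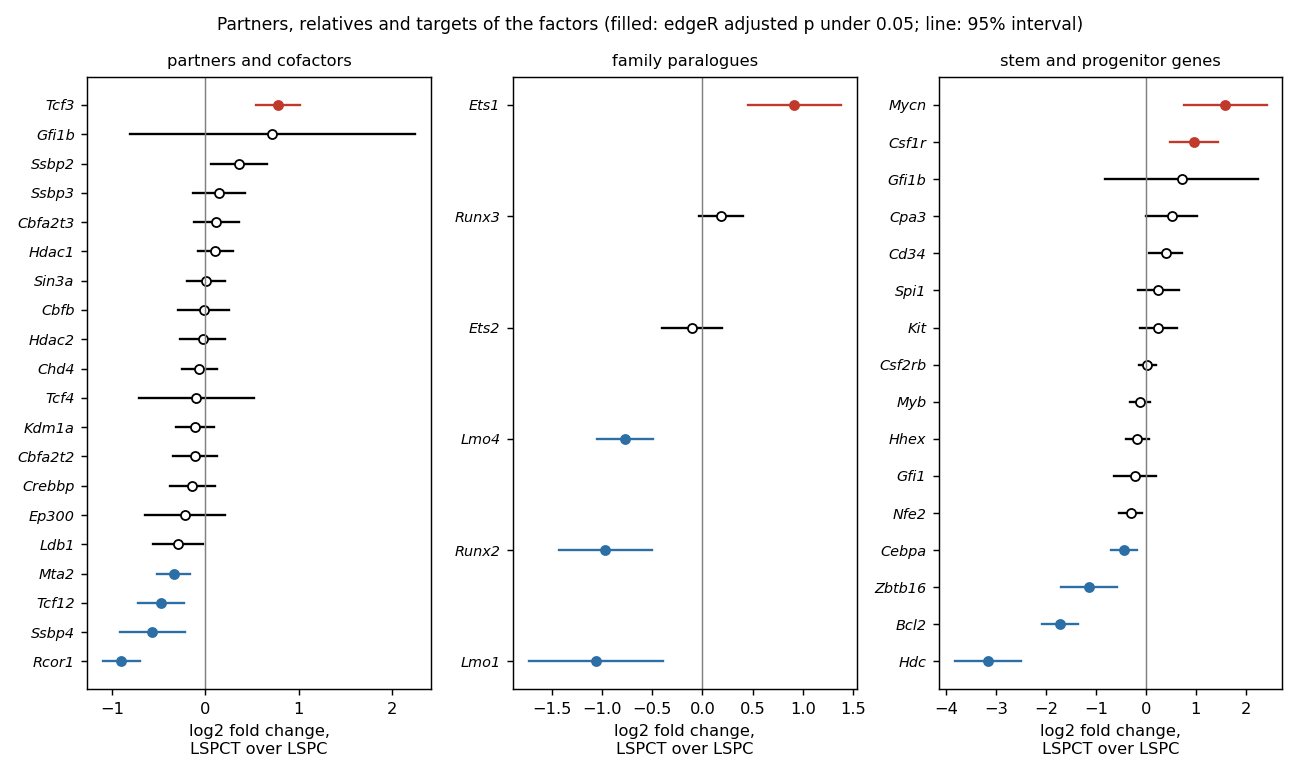
Log2 fold change, LSPCT over LSPC, with 95% interval for the tested partner and cofactor genes, relatives and blood stem and progenitor genes; filled red circles rose and filled blue circles fell (edgeR adjusted p under 0.05), open circles did not pass. Rcor1 and Hdc are the lowest of their panels, at -0.90 and -3.16.

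Genes of the mast cell, red cell and platelet lineages, which GATA1 and GATA2 serve, changed singly. The eosinophil genes described above had a median log2 fold change of 1.37 and were above 0 in 5 of 5 tested. For Prg2, the median gene, and Siglec5 this sign rested on LSPCT replicate 1 (66.5 and 152.9 CPM). In LSPCT replicates 2 and 3, Prg2 had 4.36 and 3.32 CPM, and Siglec5 had 93.5 CPM in both. These values lay below every LSPC library (lowest 5.72 CPM for Prg2 and 96.1 CPM for Siglec5). Leaving out LSPCT replicate 1, 3 eosinophil genes rose and 1 fell. No test of a shared direction was made. In the mast cell, red cell and platelet lists, Ermap, Selp, Il1rl1 and Cpa3 were higher in LSPCT at an unadjusted edgeR p under 0.05. Tfrc and Nfe2 were lower at that threshold, which 31.9% of all genes met. None of these passed (edgeR adjusted p 0.0792 to 0.154). Of 7 tested mast cell and basophil genes Hdc alone passed, while Cpa3, a mast cell protease gene, had 23.9, 13.7 and 23.3 CPM in LSPCT and 12.6, 13.7 and 16.2 CPM in LSPC (log2 0.52, edgeR adjusted p = 0.154). The list summed to 59.2, 46.6 and 46.0 CPM in LSPCT and to 79.9, 81.1 and 92.5 CPM in LSPC, but without Hdc to 52.5, 41.4 and 43.3 CPM in LSPCT and to 36.1, 43.2 and 43.4 CPM in LSPC. Its median log2 fold change was 0.06. The tryptase genes Tpsab1 and Tpsb2 had at most 7 counts in any library. Of the 6 tested red cell genes, the carbonic anhydrase gene Car2 rose to 48.6, 20.6 and 22.0 CPM in LSPCT, against 2.04, 2.46 and 1.45 CPM in LSPC (log2 3.94, SE 0.40, edgeR adjusted p = 0.000531, and 3.43 without LSPCT replicate 1). Fech, the last enzyme of haem synthesis, fell (log2 -0.75, SE 0.13, edgeR adjusted p = 0.0075). Of the 7 tested platelet lineage genes the integrin gene Itgb3 alone passed, with 101, 191 and 190 CPM in LSPCT, against 49.7, 54.7 and 43.4 CPM in LSPC (log2 1.71, SE 0.23, edgeR adjusted p = 0.00229), while its platelet partner gene Itga2b stayed between 1.95 and 4.15 CPM in all libraries (log2 0.32, edgeR adjusted p = 0.625).

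The genes beside Gata2 did not share its rise. Its nearest tested neighbours in RefSeq order, Rpn1 and Eefsec, differed by 0.06 and 0.03 on the log2 scale (edgeR adjusted p = 0.689 and 0.855). Of the 20 nearest tested neighbours of the 10 factor genes, 1 rose and 1 fell, against 8.96% and 8.24% of all genes. The riser was Ets1, beside Fli1, described above, and the other was Taf3, beside Gata3 (log2 -0.37, edgeR adjusted p = 0.0421), which missed without any 1 of LSPC replicates 1, 2 and 3 and LSPCT replicate 3 (0.0949 to 0.147) and with the replicate number as a block (0.0755). The tested genes with the profile most like that of Gata2 over the 6 libraries were Vav2, Mink1, a kinase gene, and Asb8, at Euclidean distances of 0.12, 0.13 and 0.18 on the centred log2 CPM scale, with log2 fold changes of 1.1, 1.2 and 1.01. Such likeness rests mostly on the difference between the groups.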

How the data were processed

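RNA was measured in 6 mouse libraries, grouped by the sample titles. The deposited values are the authors' counts of reads for each gene symbol, whole and not normalized. The submitters' processing notes name build mm9 and the tools featureCounts, TopHat2 2.1.0, FastQC and DESeq2. Annotation, strand setting and handling of multiply mapped reads are not given in the sources here. TMM factors came from edgeR 4.0.16 under R 4.3.3, and CPM are counts scaled by them; genes were filtered with filterByExpr (min.count 10), and the groups were tested by quasi-likelihood in edgeR (group only, two-sided, Benjamini-Hochberg over all 12729 genes tested, threshold 0.05). Each SE was obtained by dividing the absolute log2 fold change by the root of the F statistic. The alternatives were other scaling factors, other filters, DESeq2 1.42.0, limma 3.58.1 voom, glmTreat, a replicate block and leaving out each library. The factor genes, lists and motifs were chosen with earlier results of these data known. Named genes are the factor genes, up to 4 passing genes with the smallest p per list, nearest profiles and chromosomal neighbours; others, such as Ssbp4, Tcf4, Cpa3, Itga2b, genes that did not pass and genes with few counts, were chosen after their values were seen. Promoter sequences are from RefSeq (GRCm38.p6).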

Additional observations from a re-analysis of the deposited data

How the results depend on the processing

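Gata2 passed under all 15 alternatives (log2 1.08 to 1.15), and no factor gene changed direction under any. The number of factor genes that passed, 1, became 2 with DESeq2, limma voom and no filter, Tal1 being the second, and ran from 1 to 2 with 1 library left out (all of them higher; 0 lower throughout). Testing against a 1.5-fold change with glmTreat left 647 genes, 420 higher and 227 lower. Leaving out 1 library gave 1029 to 3249 genes, 586 to 1657 higher and 443 to 1592 lower. The Fli1 to Erg difference ran from -0.63 to -0.46 with 1 library left out; that of Gata2 to Gata3 ran from -0.52 to 0.78, with a turned sign without LSPC replicate 3 (-0.08) and LSPCT replicate 2 (-0.52). Eefsec ran from -0.0157 to 0.13 with 1 library left out, below 0 without LSPCT replicate 1 (-0.0157) or LSPCT replicate 2 (-0.00647); the cause was not tested. Whether replicate numbers pair the libraries cannot be settled with 3 libraries per group. Same-numbered libraries correlated in their deviations at 0.12, -0.11 and 0.11. LSPCT replicates 1 and 3 correlated best with the LSPC library of their own number, and LSPCT replicate 2 with LSPC replicate 3 (0.14). With the replicate number as a block 1792 genes passed, Gata2 alone among the factor genes (log2 1.12), and the mean differences of the ratios stayed at -0.55 and 0.09 by construction. Of 360 list counts under alternatives, 47 moved by more than 1.5 times. At this depth Tal1, with 6 to 74 counts, and Gata1, with 0 to 3, are measured least well.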
